A study of Mus musculus with 209 samples.

Results

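The 8 genes Zp1, Zp2, Zp3, Astl, Cd9, Gdf9, Bmp15 and Oosp1, listed by symbol, encode proteins of the mouse egg coat, of the egg surface and of the egg's secretions. All 8 had a row in the count tables of single mouse oocytes and 2-cell samples, which list 24450 genes. The series profiled DNA hydroxymethylation, DNA methylation and RNA in mouse germ cells and embryos. Only the 50 RNA libraries of oocytes and 2-cell samples enter here. They came from C57BL/6 females of 6 to 8 weeks, superovulated with the gonadotrophins PMSG and hCG. Oocytes at metaphase II (MII), the stage at which the egg is ovulated, were collected 14 to 15 hours after hCG, and 2-cell samples 42 to 43 hours after hCG, following mating with C57BL/6 or PWK males.

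The libraries form 4 groups. The wild-type (WT) oocytes numbered 14 and the oocytes with the genotype "N14 maternal KO" numbered 19, and there were 8 WT and 9 KO 2-cell samples. N14 was read as Nlrp14, a maternal NLR family gene, because that transcript was lower in the KO libraries. In the 2-cell KO samples the mother lacked the gene, and the sires' genotype is not given in the sources used here. The labels name neither the father's strain sample by sample, nor the allele of the KO, nor any animal, and they do not say whether a 2-cell library is a blastomere or a whole embryo. Each library is labelled as single-cell polyA RNA, so without named animals each group counts as 1 sample. No p-value was therefore computed, and each comparison gives the ratio of pooled CPM (counts scaled to 1000000 counts per library) with a 95% interval that covers counting error only.

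The zona pellucida is the glycoprotein coat around the egg. In the mouse it is built from filaments of ZP2 and ZP3 that ZP1 cross-links, and growing oocytes make its proteins. Sperm bind the coat through ZP2, and after fertilisation the cortical granules release ovastacin, the protease encoded by Astl, which cleaves ZP2 and ends sperm binding. Cd9 encodes a tetraspanin of the egg membrane that sperm-egg fusion requires, Gdf9 and Bmp15 encode growth factors of the TGF-beta family by which the oocyte acts on the surrounding follicle cells, and Oosp1 encodes an oocyte secreted protein. Much of an oocyte's mRNA is removed around the 2-cell stage, when the embryo's own genome, including the paternal copy, becomes active.

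Promoter sequence was available for 5 of the 8 genes (Zp3, Astl, Cd9, Oosp1 and Bmp15). The 250 bases before the start site of Zp3 and Cd9 are shown because these members had the largest paternal shares of counts in WT 2-cell samples. Those of Bmp15 are shown because its counts there were almost wholly maternal. Sequences are from RefSeq, build GRCm38.p6, 5′ to 3′ on the gene's strand, with each E-box (CANNTG, searched on both strands, which its palindrome makes the same) in capitals. Zp3 lies at chr5:135979855-135980104 on the plus strand, Cd9 at chr6:125494761-125495010 and Bmp15 at chrX:6320725-6320974, both on the minus strand.
Zp3: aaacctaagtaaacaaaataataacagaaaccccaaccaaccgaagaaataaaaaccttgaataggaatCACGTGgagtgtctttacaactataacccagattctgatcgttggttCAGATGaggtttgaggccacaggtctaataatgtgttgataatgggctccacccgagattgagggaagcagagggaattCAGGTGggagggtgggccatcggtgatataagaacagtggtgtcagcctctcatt
Cd9: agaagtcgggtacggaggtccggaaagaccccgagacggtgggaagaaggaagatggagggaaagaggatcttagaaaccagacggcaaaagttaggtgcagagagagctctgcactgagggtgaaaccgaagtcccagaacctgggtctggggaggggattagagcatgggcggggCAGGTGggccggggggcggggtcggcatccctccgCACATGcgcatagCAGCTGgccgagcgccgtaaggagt
Bmp15: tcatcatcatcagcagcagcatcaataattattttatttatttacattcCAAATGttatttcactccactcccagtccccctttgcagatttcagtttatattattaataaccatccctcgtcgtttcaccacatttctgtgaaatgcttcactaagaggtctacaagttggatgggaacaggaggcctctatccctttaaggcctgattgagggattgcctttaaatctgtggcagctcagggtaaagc
The Zp3 and Cd9 windows each held 3 E-boxes and that of Bmp15 held 1. Of the other promoters, that of Oosp1 held 5 and those of the 2 start sites of Astl 0 and 3. The Zp3 E-boxes began 181, 134 and 55 bases before the start site, and TATAA motifs, searched on both strands, began 160 and 29 bases before it. The Cd9 window held no TATAA. These letters are common: 66.2% of 32851 promoters of the same length held an E-box and 22.8% held TATAA. The E-boxes overlapped no TATAA in these windows.

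The libraries held 2704050 to 15007301 counts. They fell into sets that differ technically. In 34 libraries, namely 10 WT and 7 KO oocytes and all 2-cell samples, RNA spike-ins took 0.0285% to 0.135% of the counts, and these are called spike-in libraries. In the other 16 oocytes spike-ins took at most 0.00326%. Of these, 3 WT and 10 KO oocytes had 0.175% to 0.508% of counts on the ribosomal precursor Rn45s and are called low-rRNA libraries, and the remaining 1 WT and 2 KO oocytes had 1.78% to 2.38%. CPM are shares of a library, so by CPM alone more of one transcript and less of the others cannot be told apart. In 2-cell samples spike-ins took 0.101% to 0.135% in WT replicates 1 to 7, 0.0583% in WT replicate 8 and 0.0478% to 0.0957% in KO. Ratios were scaled to total gene counts and not to spike-ins, and directions relative to spike-ins were not tested. Oocytes were compared within a set, and 2-cell samples with spike-in oocytes unless stated. Genotypes were not matched within the spike-in set. Its oocytes had spike-in shares of 0.0382% to 0.0586% in WT and 0.0285% to 0.0389% in KO. Their Rn45s shares were 1.20% to 3.55% in WT and 1.25% to 1.54% in KO. In 2-cell samples the Rn45s shares were 0.621% to 1.71% in WT and 0.513% to 0.935% in KO, the KO ones below every KO spike-in oocyte. The part of these shares in the KO against WT ratios and in the steps between stages was not tested.

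Nlrp14 stood at 225 to 600 CPM in WT and 29.5 to 63.6 CPM in KO spike-in oocytes, at 637, 651 and 652 CPM in WT and 0.643 to 42.4 CPM in KO low-rRNA oocytes, and at 106 to 477 CPM in WT and 29.4 to 86.4 CPM in KO 2-cell samples. WT and KO libraries did not overlap in any of these 3 comparisons. All 9 oocyte markers, including H1foo, Dppa3 and Zar1, were at 1 CPM or more in the pool of each group. The marker Mos was near that limit in spike-in oocytes, at 1.69 CPM in the WT pool and 4.90 CPM in the KO pool. It stood at 506 and 509 CPM in the low-rRNA pools and at 806 and 676 CPM in the remaining ones (WT, KO). The 6 measured 2-cell markers, including Zfp352 and Obox6, summed to 0.322 to 17.03 CPM in oocytes and 185 to 2194 CPM in 2-cell samples. Of 12 cumulus and granulosa cell markers, 7 to 10 had counts in each group and library set, with a summed level of 31.9 to 226 CPM, and 3 to 7 reached 1 CPM. In each oocyte pool the highest of them was Cyp19a1, at 52.1 to 94.8 CPM. Kitl stood at 6.63 to 24.5 CPM and Col4a1 at 1.13 to 7.69 CPM in these pools. Tnfaip6 (10.2 CPM), Inha (8.80 CPM), Inhba (3.71 CPM) and Ptgs2 (2.76 CPM) were highest in the 1 remaining WT oocyte. In the KO low-rRNA pool Inha stood at 2.32, Ptgs2 at 2.40 and Tnfaip6 at 1.71 CPM. Amh, Foxl2 and Fshr were at most 0.077 CPM in the oocyte pools, and Has2 and Ptx3 at most 0.510 CPM. Sperm and late spermatid markers summed to at most 19.6 CPM and blood markers to at most 5.49 CPM.

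One library stood apart. WT 2-cell replicate 8 had the lowest Nlrp14 of its group, 106 CPM against 207 to 477 CPM in the other 7, and 4.00% of its allele-assigned counts were paternal, against 9.03% to 24.7% in those 7 and 1.21% to 8.68% in the KO samples. Its oocyte markers summed to 7722 CPM against 3398 to 4474 CPM in the other 7. The KO against WT ratios and the pooled paternal shares of 2-cell samples are given with and without it, and stage steps without it where it moved a call or a direction.

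**Figure D1:**
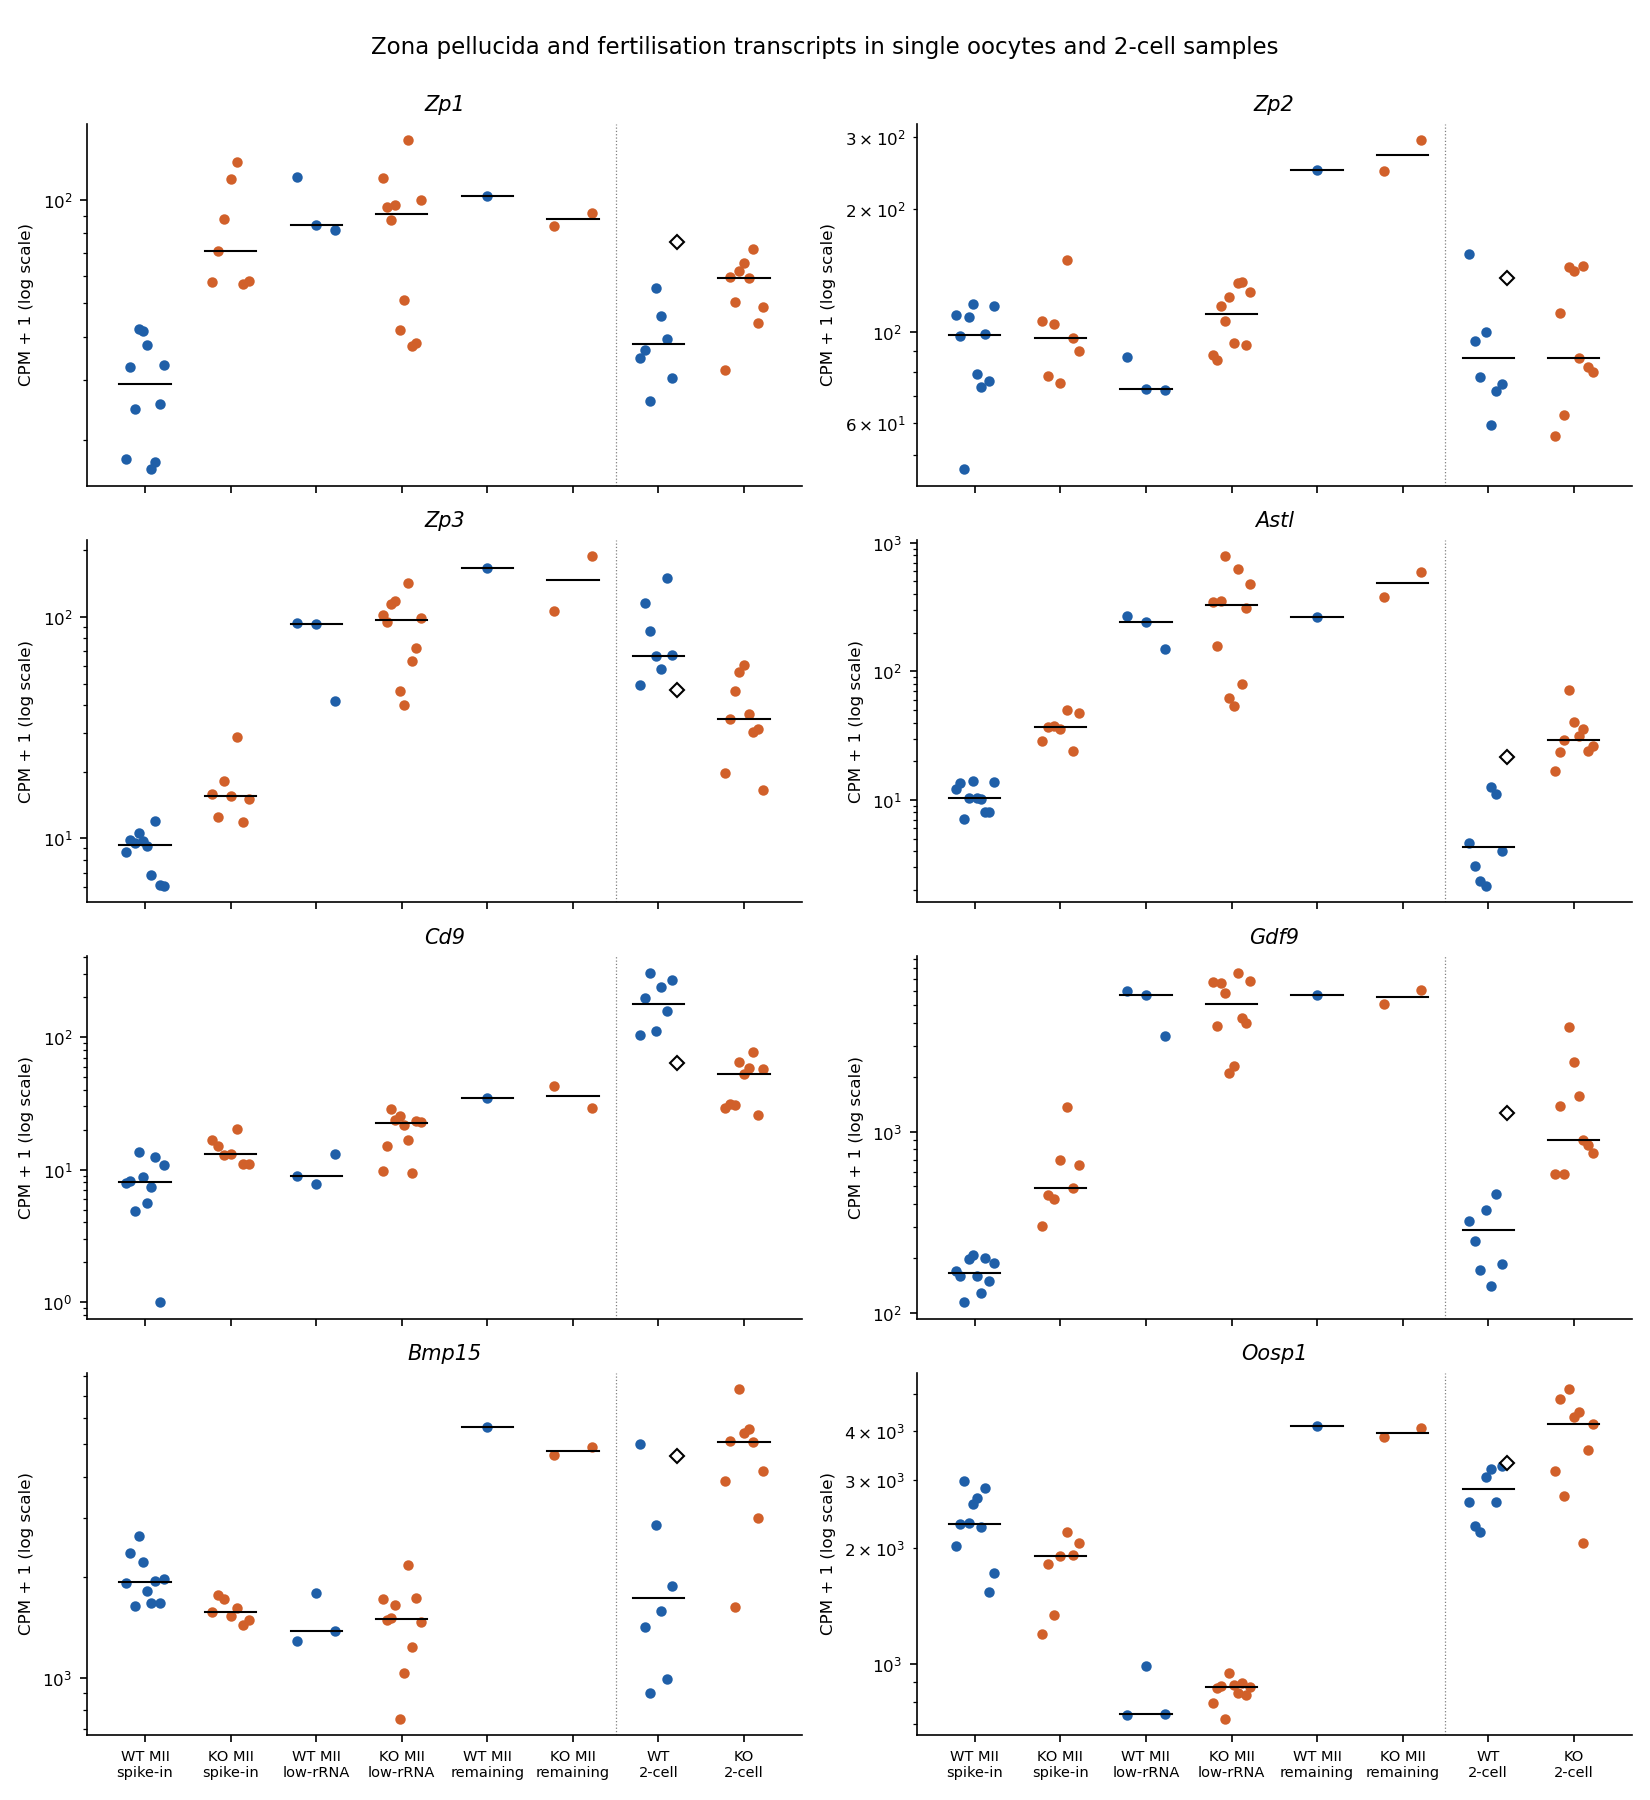
Level of each transcript in every library (1 point per library, CPM + 1 on a log axis; bars are medians; blue WT, orange KO, MII = oocytes). WT 2-cell replicate 8 is the open diamond; it lies among the KO samples for Astl, Cd9 and Gdf9, and the low-rRNA oocytes lie above all spike-in oocytes for Zp3, Astl and Gdf9.

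More of these transcripts differed between genotypes in spike-in oocytes than in low-rRNA oocytes. In spike-in oocytes 5 of the 8 (Zp1, Zp3, Astl, Cd9 and Gdf9) were at least 2-fold higher in KO and none at least 2-fold lower, where 9.41% of 6375 genes were higher and 3.69% lower. In low-rRNA oocytes only Cd9 was at least 2-fold higher and none was lower, where 1.98% of 5957 genes were higher and 2.03% lower. With only 3 WT libraries in that set the all-gene counts rested on single ones, as 118 higher genes became 336 without WT replicate 2 and 121 lower genes became 201 without WT replicate 3. Libraries of both genotypes overlapped for all 8 members in that set, and 1.56% of genes had groups that did not overlap. In 2-cell samples Astl and Gdf9 were at least 2-fold higher in KO and Cd9 at least 2-fold lower, where 5.96% of 8416 genes were higher and 31.6% lower. The 2-cell groups overlapped for all 8 members, and 1.7% of genes had groups that did not. Without WT 2-cell replicate 8, Bmp15 joined the higher and Zp3 the lower genes, where 11.3% and 36.9% of 8648 genes were. The median log2 ratio of the 8 genes in these 4 comparisons was 1.04, 0.15, 0.41 and 0.59, beside 0.07, -0.02, -0.35 and -0.46 over all genes tested. With all oocytes of a genotype pooled across sets, 1 of 8 (Astl, 1.25) was higher in KO and none lower, where 2.04% and 2.39% of 6325 genes were. Whether the effect of genotype differed between oocyte sets was not tested.

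**Figure D2:**
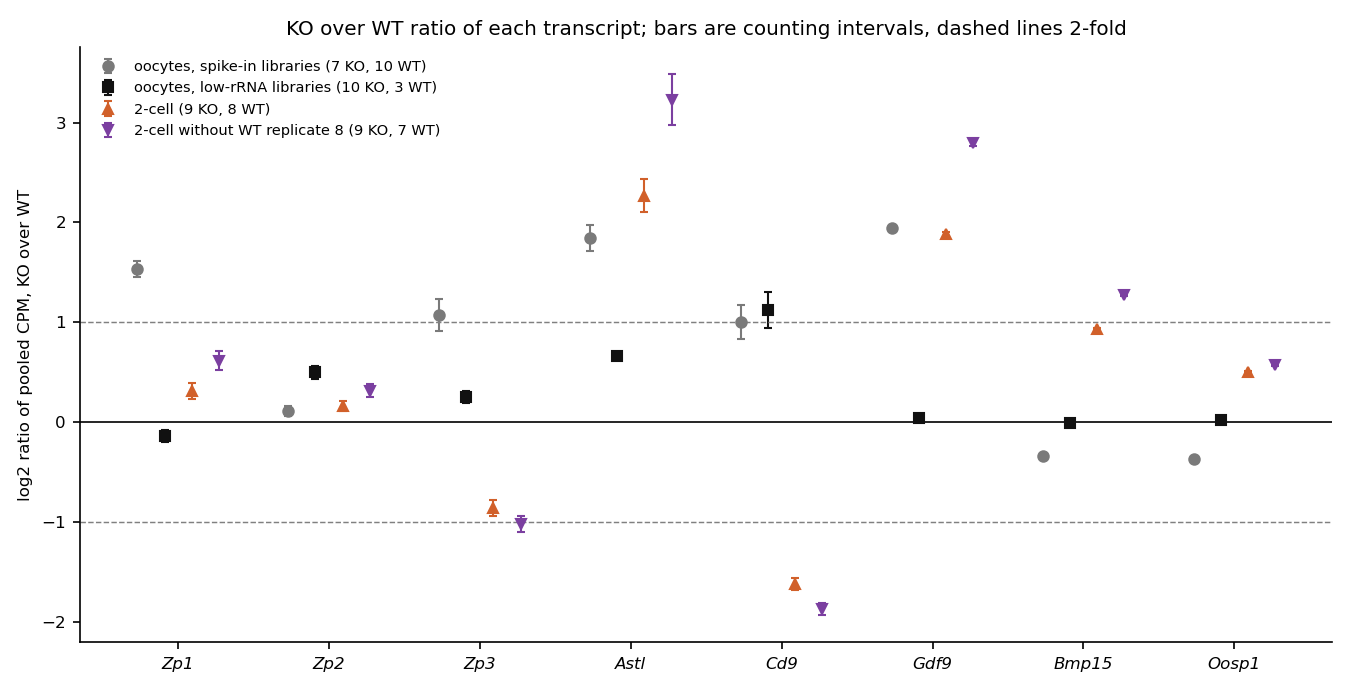
Log2 ratio of pooled CPM, KO over WT, for each transcript in 4 comparisons; bars are 95% intervals for counting error only and dashed lines mark 2-fold. Gdf9 stands at 1.94 in spike-in oocytes and 0.04 in low-rRNA oocytes, and Cd9 changes side between oocytes and 2-cell samples.

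Zp1 encodes the cross-linking coat protein. It had 15.5, 28.1 and 41.0 CPM (lowest, median, highest) in the 10 WT spike-in oocytes and 55.9, 70.0 and 128 CPM in the 7 KO ones, and the 2 groups did not overlap, as held for 9.98% of genes in this comparison. The pooled log2 ratio was 1.53 (1.46 to 1.61). In low-rRNA oocytes the WT libraries had 116, 83.8 and 80.75 CPM and the 10 KO ones 36.6, 90.3 and 148 CPM. For all members the WT low-rRNA values are those of replicates 1, 2 and 3 in order, and other triplets are lowest, median and highest. In the low-rRNA set the groups overlapped for Zp1, with a ratio of -0.14 (-0.20 to -0.07). In 2-cell samples WT had 25.1, 37.1 and 74.2 CPM and KO 31.1, 58.1 and 71.2 CPM. The ratio was 0.31 (0.23 to 0.39), or 0.62 (0.52 to 0.71) without WT replicate 8, which was the highest WT value.

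Zp2 encodes the coat protein that sperm bind and ovastacin cleaves. In the 5 comparisons of genotype or stage its log2 ratio was between 0.11 and 0.50 with all libraries kept. WT and KO spike-in oocytes had 45.3, 97.5 and 116 CPM and 74.2, 95.7 and 149 CPM, a log2 ratio of 0.11 (0.06 to 0.16). WT low-rRNA oocytes had 85.9, 71.5 and 71.2 CPM and KO ones 84.5, 110 and 131 CPM, and 9 of the 10 KO libraries lay above all 3 WT ones at a ratio of 0.50 (0.44 to 0.56). In 2-cell samples WT had 58.2, 85.3 and 154 CPM and KO 54.8, 85.6 and 144 CPM, a ratio of 0.16 (0.11 to 0.22), or 0.32 (0.25 to 0.38) without WT replicate 8. The 3 remaining oocytes stood above every other library, with 248 CPM in the WT one and 247 and 294 CPM in the KO ones.

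Zp3 encodes the second filament protein, and in oocytes its level differed more between library sets than between genotypes. It had 5.115, 8.35 and 10.9 CPM in WT spike-in oocytes and 10.8, 14.5 and 27.8 CPM in KO ones, of which 6 of 7 lay above every WT value. The log2 ratio was 1.07 (0.92 to 1.23), and 0.84 without KO replicate 15, which ended the call. WT low-rRNA oocytes had 92.3, 92.2 and 40.9 CPM and KO ones 38.9, 95.7 and 140 CPM, with overlap and a ratio of 0.25 (0.19 to 0.32). In 2-cell samples the direction was the other way, at 45.6, 65.8 and 149 CPM in WT and 15.6, 33.6 and 59.6 CPM in KO. All 9 KO samples were below the WT median and 7 below every WT sample, at a ratio of -0.86 (-0.93 to -0.78), which passed 2-fold without WT replicate 8 (-1.02) and without KO replicate 4 (-1.04).

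Astl encodes ovastacin, the cortical granule protease. Its 7 KO spike-in oocytes had 23.0, 36.15 and 48.6 CPM and all lay above the 10 WT ones, with 6.17, 9.41 and 13.2 CPM. The log2 ratio was 1.84 (1.71 to 1.97). Low-rRNA oocytes held far more, at 266, 242 and 148 CPM in WT and 52.8, 328 and 782 CPM in KO. KO libraries lay on both sides of WT there, 6 above all 3 WT libraries and 3 below, at a ratio of 0.66 (0.62 to 0.70). In 2-cell samples WT had 1.16, 3.30 and 20.8 CPM and KO 15.9, 28.1 and 70.7 CPM. The ratio was 2.27 (2.10 to 2.43). Without WT replicate 8, the highest WT sample, the groups did not overlap and the ratio was 3.23 (2.98 to 3.49), where 16.9% of genes had groups that did not overlap.

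Cd9, the membrane tetraspanin of sperm-egg fusion, was scarce in oocytes and abundant in WT 2-cell samples. It had 0, 7.03 and 12.48 CPM in WT spike-in oocytes and 10.0, 12.1 and 19.4 CPM in KO ones. The log2 ratio of 1.00 (0.83 to 1.17) lay at the 2-fold limit. Leaving out any 1 of 7 libraries (KO replicates 11, 12 and 15, WT replicates 6, 9, 10 and 12) took it below the limit, down to 0.80 without WT replicate 12, where Cd9 had no count. WT low-rRNA oocytes had 7.91, 6.74 and 12.2 CPM and KO ones 8.50, 21.3 and 27.5 CPM, and 8 of 10 KO libraries lay above all 3 WT ones, at a ratio of 1.12 (0.94 to 1.30). Without WT replicate 2 this ratio was 0.93.

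In 2-cell samples the order of the genotypes for Cd9 was reversed. WT had 62.9, 176 and 305 CPM and KO 24.7, 51.6 and 75.7 CPM, and all KO samples were below the WT median. The log2 ratio was -1.62 (-1.68 to -1.56). Without WT replicate 8, the lowest WT sample, the remaining 7 WT samples (102 to 305 CPM) lay above all 9 KO samples, at a ratio of -1.87 (-1.93 to -1.81). In the RefSeq table Cd9 overlaps the genes Gm28809 and Gm26728, and the strand used in counting is not given in the sources used here.

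Gdf9 and Bmp15 encode partner growth factors, but their transcripts differed in genotype ratio in spike-in oocytes and in their difference between oocyte sets. Over the libraries of 1 group, the Spearman correlation of their CPM ran from -0.29 in KO spike-in oocytes to 0.93 in KO 2-cell samples. Gdf9 had 114, 164 and 208 CPM in WT spike-in oocytes and 300.1, 487 and 1380 CPM in KO ones, without overlap. The log2 ratio was 1.94 (1.91 to 1.97), and 1.56 without KO replicate 15. In low-rRNA oocytes it had 5974, 5690 and 3368 CPM in WT and 2104, 5069 and 7562 CPM in KO, a ratio of 0.04 (0.03 to 0.05) with overlapping groups. The gene overlaps Uqcrq in the RefSeq table, so reads of the pair may be shared.

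In 2-cell samples Gdf9 had 140, 286 and 1272 CPM in WT and 582.5, 896 and 3792 CPM in KO. The highest WT value was that of replicate 8. The log2 ratio was 1.89 (1.87 to 1.91) with it and 2.80 (2.77 to 2.83) without it, when the groups did not overlap. Without KO replicate 4, the highest KO sample, the ratio was 1.34. The oocyte markers moved in the same direction, with a summed level of 3398 to 7722 CPM in WT and 6461 to 22334 CPM in KO 2-cell samples, and their part in the Gdf9 and Astl differences was not tested.

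Bmp15 differed little between genotypes in oocytes. It had 1641, 1933 and 2665 CPM in WT and 1436, 1575 and 1764 CPM in KO spike-in oocytes, a log2 ratio of -0.33 (-0.35 to -0.32), with 5 of 7 KO libraries below every WT one. Low-rRNA oocytes had 1291, 1798 and 1378 CPM in WT (by replicate) and 753, 1496 and 2176 CPM in KO, a ratio of -0.01 (-0.02 to 0.01). In 2-cell samples WT had 897, 1731 and 5019 CPM and KO 1625, 5099 and 7314 CPM. Samples overlapped, 8 of 9 KO samples lay above the WT median, and the ratio was 0.93 (0.92 to 0.94). It passed 2-fold without WT replicate 8 (1.27) or without WT replicate 1 (1.10).

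Oosp1, the secreted protein transcript, showed the opposite set pattern to Gdf9. WT and KO spike-in oocytes had 1539, 2307 and 2978 CPM and 1194, 1907 and 2191 CPM, a log2 ratio of -0.37 (-0.38 to -0.35). Low-rRNA oocytes had 738, 989 and 742 CPM in WT (by replicate) and 722, 870 and 950 CPM in KO, a ratio of 0.03 (0.01 to 0.05). In 2-cell samples WT had 2196, 2835 and 3320 CPM and KO 2056, 4183 and 5136 CPM, a ratio of 0.50 (0.49 to 0.51), with 6 of 9 KO samples above every WT one. Without WT replicate 8 it was 0.57 (0.56 to 0.58).

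Between the 2 sets of WT oocytes 4 of 7 tested members were at least 2-fold higher in low-rRNA libraries and 1 lower, where 19.1% and 24.1% of 6504 genes were. Gdf9 differed by 4.90 (4.87 to 4.93) on the log2 scale, Astl by 4.47 (4.35 to 4.59), Zp3 by 3.31 (3.17 to 3.45) and Zp1 by 1.65 (1.57 to 1.73), each without overlap. Oosp1 differed by -1.45 (-1.47 to -1.44), also without overlap, and 39.1% of genes had groups that did not overlap. In KO oocytes the set differences were 3.00 for Gdf9, 3.28 for Astl, 2.49 for Zp3 and -1.06 for Oosp1, again without overlap, but -0.02 (-0.07 to 0.04) for Zp1. In KO oocytes 3 of 8 members were thus higher and 1 lower in low-rRNA libraries, where 13.6% of 6544 genes were higher, 23.9% lower and 27.3% without overlap. The sets differ in spike-in and Rn45s content, and what else set them apart is not given in the sources used here. Across the classes of library, Zp3, Astl and Gdf9 were lowest in WT spike-in oocytes (Zp3 and Gdf9) or WT 2-cell samples (Astl), and the low-rRNA and remaining oocytes held the highest Astl and Gdf9 levels, by the medians.

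From WT spike-in oocytes to WT 2-cell samples 3 of 7 tested members (Cd9, Zp3 and Gdf9) were at least 2-fold higher and none lower, where 42.1% of 8478 genes were higher and 12.8% lower. Cd9 was higher by 4.56 (4.43 to 4.71) on the log2 scale and Zp3 by 3.24 (3.10 to 3.38). For both genes all 8 2-cell samples lay above all 10 oocytes, as the groups of 32.0% of genes did not overlap. Gdf9 was higher by 1.60 (1.56 to 1.63), but only by 0.68 without WT 2-cell replicate 8, which ended the call (44.4% of genes were higher and 14.6% lower without it). The step was 0.65 for Zp1, 0.47 for Bmp15, 0.33 for Oosp1 and 0.13 for Zp2 (-0.02 without replicate 8). Astl, under 10 CPM in both pools, was not tested. The step over all genes had a median of 0.69, so these 4 smaller steps lay below it.

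From KO spike-in oocytes to KO 2-cell samples 5 of 8 (Cd9, Bmp15, Gdf9, Zp3 and Oosp1) were at least 2-fold higher and none lower, where 19.5% of 7153 genes were higher and 16.3% lower. The step was 1.94 (1.83 to 2.06) for Cd9, the 1 member whose groups did not overlap (23.3% of genes), 1.73 (1.72 to 1.74) for Bmp15, 1.31 (1.20 to 1.42) for Zp3 and 1.20 (1.19 to 1.21) for Oosp1. It was 1.54 (1.52 to 1.56) for Gdf9, and 0.99 without KO 2-cell replicate 4. Zp1 stood at -0.56, Zp2 at 0.18 and Astl at 0.14. The KO step minus the WT step was -2.62 on the log2 scale for Cd9, -1.93 for Zp3 and -1.22 for Zp1, against 1.27 for Bmp15, 0.87 for Oosp1, 0.42 for Astl, 0.05 for Zp2 and -0.05 for Gdf9. All WT 2-cell samples entered these differences. Without WT 2-cell replicate 8 the WT step was 0.68 rather than 1.60 for Gdf9 and -1.25 rather than -0.29 for Astl. Astl was under 10 CPM in both WT pools. The differences between steps were not tested.

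The oocyte set chosen as the start decided several of these steps. Against low-rRNA oocytes, a reference added after the data were seen, Gdf9 stood at -3.30 in WT and -1.46 in KO, and Zp3 at -0.07 and -1.18. Astl stood at -4.75 and -3.15. Cd9 kept its direction against either set (4.20 in WT and 1.47 in KO against low-rRNA oocytes), as did Oosp1 (1.79 and 2.26) and Bmp15 (0.88 and 1.81). In WT 2-cell samples 2 of 8 members were then higher and 2 lower, where 49.3% and 16.9% of genes were, and in KO ones 3 were higher and 3 lower, where 35.5% and 19% were. Against all oocytes of the genotype 1 was higher and 2 lower in WT, where 41.1% and 14.3% of genes were, and 3 were higher and 1 lower in KO, where 23.6% and 17.4% were.

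The allele tables assign counts to the maternal or the paternal genome where a read carries a distinguishing base. Between a C57BL/6 mother and a C57BL/6 father no such base would exist. The father's strain is not named sample by sample, so its part in the paternal shares of single samples or of WT and KO was not tested. By these counts the members fall into 2 kinds. Cd9 and Zp3 had a paternal share of over 10% in pooled WT 2-cell samples, whereas that of the other 6 members was under 1%. Pooled over WT samples the paternal share was 35.1% of 2924 assigned counts for Cd9 (33.4% to 36.9%, exact binomial) and 16.7% of 1461 for Zp3 (14.8% to 18.7%). It was 0.698% for Zp2, 0.162% for Bmp15, 0.0936% for Zp1 and for Gdf9 and 0.0836% for Oosp1. Astl had 0 of 261, which allows a share of up to 1.149% by the limit of 3 counts (1.40% by the exact interval). Over 10869 genes the median share was 21.6%, so Zp3 lay below the median and Cd9 above it. Of these genes 65.9% had a share of 10% or more and 12.7% were under 1%. Without WT replicate 8 the share was 37.2% for Cd9, 19.6% for Zp3, 1.04% for Zp2, 0.231% for Gdf9, 0.186% for Bmp15, 0.0696% for Oosp1 and 0 of 641 counts for Zp1. The median over 10285 genes was then 26.1%, with 70.2% of genes at 10% or more and 11.6% under 1%. With replicate 8 kept, the Zp2 share was 0.166% without WT replicate 2. The oocyte columns of these tables were not split by allele, so no error rate of the assignment could be read from them.

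**Figure D3:**
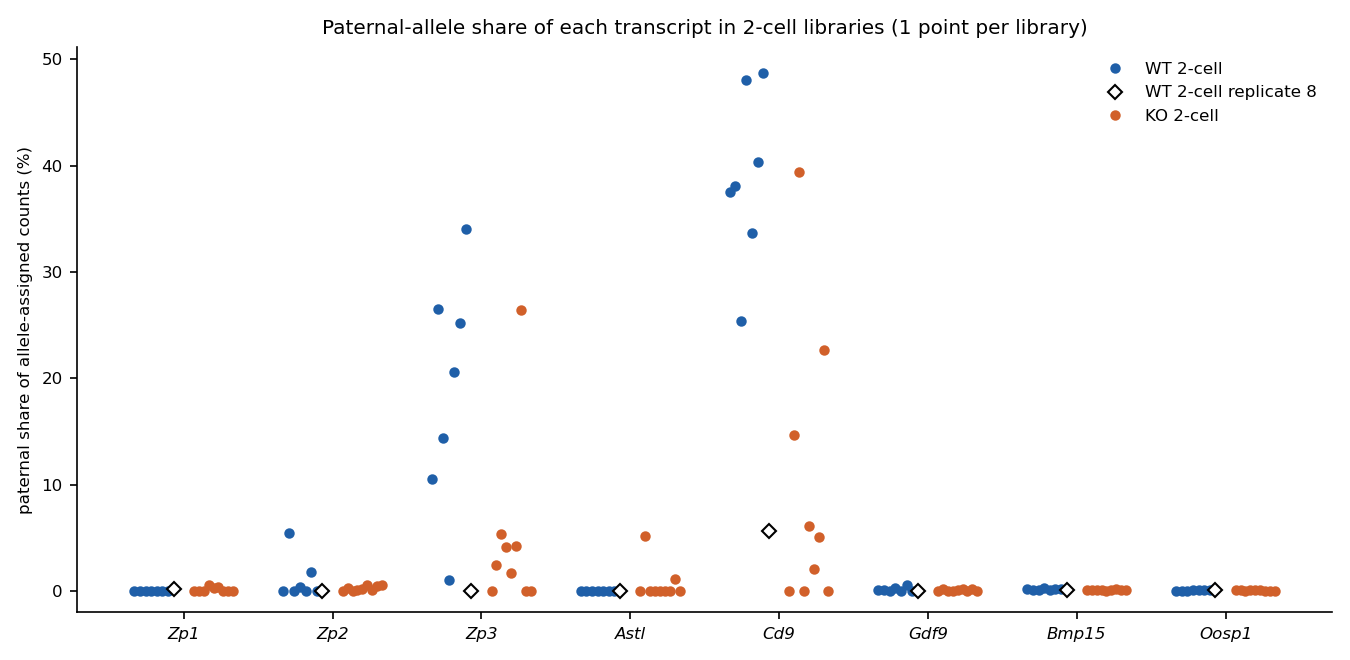
Paternal share of allele-assigned counts (%) in each 2-cell library, WT in blue and KO in orange, with WT replicate 8 as an open diamond. Cd9 stands between 25.4% and 48.7% in 7 WT samples and at 5.70% in replicate 8, while Gdf9, Bmp15 and Oosp1 stay under 1% in each library.

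For Cd9 the WT paternal shares by replicate were 37.6%, 38.1%, 25.4%, 48.1%, 33.7%, 40.4%, 48.7% and, in replicate 8, 5.70%. A paternal share above 25% was thus seen in 7 WT samples and not in replicate 8. In KO samples the shares were 0%, 14.7%, 39.4%, 0%, 6.12%, 2.05%, 5.08%, 22.6% and 0%, of 33 to 276 assigned counts each. The 39.4% of KO replicate 3 rested on 33 counts (22.9% to 57.9%) and was the only KO value inside the range of WT replicates 1 to 7. Pooled over KO samples the share was 5.41% (4.11% to 6.96%), beside a median of 3.34% over 10154 genes. The log2 ratio of KO over WT was -4.74 (-5.15 to -4.35) for paternal Cd9 CPM and -1.49 (-1.61 to -1.38) for maternal Cd9 CPM. Without WT replicate 8 these were -5.12 and -1.75.

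For Zp3 the WT shares were 10.6%, 26.5%, 14.4%, 1.03%, 20.7%, 25.2%, 34.0% and, in replicate 8, 0 of 213 counts, which allows up to 1.41% by the limit of 3 counts (1.72% by the exact interval). In KO samples they were 0%, 2.47%, 5.36%, 4.14%, 1.67%, 4.29%, 26.4%, 0% and 0%. WT replicate 4 was as low as the KO samples, and KO replicate 7, with 33 of 125 counts, was as high as the WT ones. The pooled KO share was 5.53% (4.27% to 7.02%), and 2.96% without KO replicate 7. The log2 ratio of KO over WT was -2.49 (-2.92 to -2.09) for paternal Zp3 CPM and -0.72 (-0.84 to -0.60) for maternal CPM, or -2.89 and -0.84 without WT replicate 8. Most assigned Zp3 counts in WT 2-cell samples were maternal, although the level there was above that of every spike-in oocyte.

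**Figure D4:**
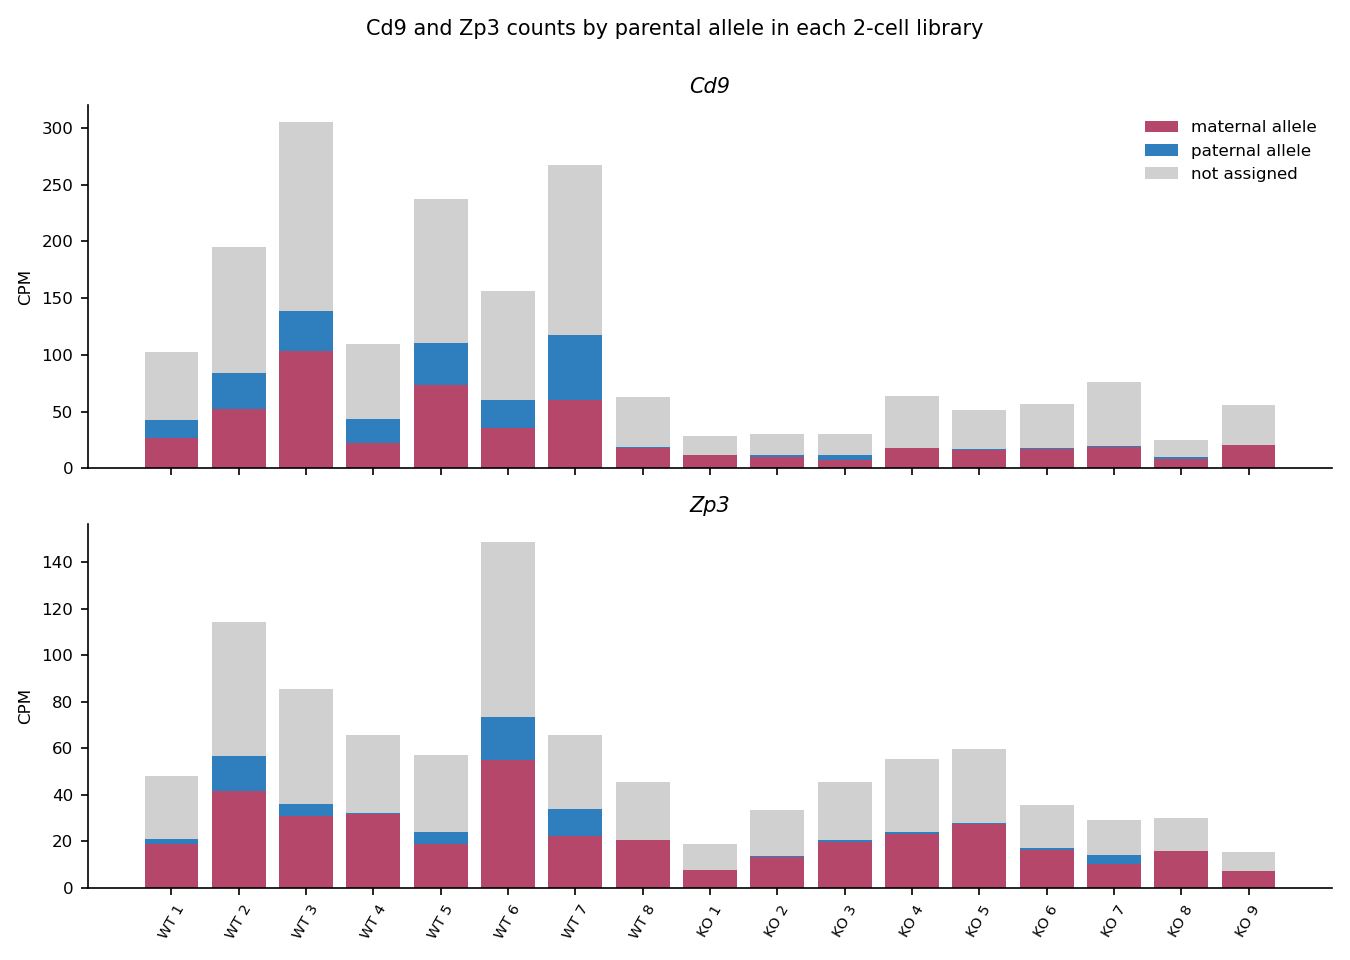
Cd9 and Zp3 in each 2-cell library, stacked by counts assigned to the maternal allele, to the paternal allele or to neither, in CPM. The bars of WT replicates 1 to 7 reach 102 to 305 CPM for Cd9 and hold a paternal part, and that of WT replicate 8 resembles the KO bars.

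Gdf9, Bmp15, Oosp1, Zp1, Zp2 and Astl were read almost wholly from the maternal allele in both genotypes. Gdf9 had 14 paternal of 14956 assigned counts in WT and 72 of 80891 in KO. Bmp15, which lies on the X chromosome, had a share of 0.0636% to 0.285% in each WT sample and 0.0554% to 0.178% in each KO one. The pooled KO shares of all 6 were under 0.4%, where 32.8% of genes in KO were under 1%. Zp2 reached 5.50% in WT replicate 2, with 11 of 200 counts, and Astl 5.15% in KO replicate 2, with 5 of 97. In maternal counts alone KO exceeded WT by 1.89 (1.87 to 1.92) on the log2 scale for Gdf9, 2.14 (1.95 to 2.33) for Astl and 0.94 (0.93 to 0.96) for Bmp15. Without WT replicate 8 these were 2.80, 3.14 and, past 2-fold, 1.31. They were 0.50 for Oosp1, 0.38 for Zp1 and 0.27 for Zp2 with it, and 0.57, 0.72 and 0.45 without it.

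The counts of other gene lists are read against the shares over all genes, which were 9.41% higher and 3.69% lower in KO in spike-in oocytes, 1.98% and 2.03% in low-rRNA oocytes and 5.96% and 31.6% in 2-cell samples. From spike-in oocytes to 2-cell samples the shares were 42.1% higher and 12.8% lower in WT, and 19.5% and 16.3% in KO. Of 10 other genes of the egg coat, egg surface and zinc uptake, 9 had a row and 8 or 9 reached 10 CPM in each comparison. None was 2-fold different between genotypes in either oocyte set, and the largest log2 ratios were -0.86 for Oosp3, a relative of Oosp1, in spike-in oocytes and -0.41 for Izumo1r, the egg receptor for sperm IZUMO1, in low-rRNA oocytes. In 2-cell samples 2 of 8 were higher in KO, Ooep (1.11) and Izumo1r (1.08), and none was lower. Their median log2 ratio in 2-cell samples was 0.37, beside -0.35 over all genes. Between stages Oosp2 was lower in WT 2-cell samples (-1.29) and Ooep higher in KO ones (1.70).

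Of 16 listed genes of the cortical granules and their exocytosis, which release ovastacin, 12 were tested in spike-in oocytes. Padi6 (1.27) and Nsf (1.17), an ATPase that recycles membrane fusion complexes, were higher in KO and none was lower. In low-rRNA oocytes none of 10 passed 2-fold, Nsf having the largest ratio at 0.81. In 2-cell samples Nlrp5 was higher (1.58) and Snap23, a membrane fusion protein, lower (-1.01). From oocytes to 2-cell samples 2 of 12 tested genes were higher and 2 lower in WT, and 1 was higher and 2 lower in KO. Padi6 and Nlrp5 were lower in both genotypes, at -2.53 each in WT and at -3.41 and -1.90 in KO. Calr, an endoplasmic reticulum chaperone, was higher in WT (2.08) and stood at 0.65 in KO.

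Of 18 listed genes of GDF9 and BMP15 signalling, 10 to 12 were tested in each comparison. Furin, a protease that matures growth factors of this family, stood at 24.8 CPM in KO and 3.87 CPM in WT spike-in oocytes, a log2 ratio of 2.68 (2.49 to 2.88), and Smad5, a signal transducer, was higher as well (1.20). In low-rRNA oocytes Furin was at -0.10, and the receptor Bmpr1a was the 1 gene past 2-fold (1.39). In 2-cell samples the receptors Bmpr1a (-2.88) and Tgfbr1 (-1.92) were lower in KO and the growth factor Fgf8 was higher (1.30). From oocytes to 2-cell samples 4 of 11 tested genes were higher and 1 lower in WT, and 2 were higher and 2 lower in KO. Fgf8 was higher in both genotypes (3.59 in WT, 4.49 in KO), while Bmpr1a (3.54) and Tgfbr1 (2.23) were higher in WT.

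Of 12 listed oocyte transcription factors, 9 or 10 were tested. In spike-in oocytes Gtf2a1l (1.60) and Tcf3 (1.24) were higher in KO and none was lower, with a median of 0.76 for the list, and in low-rRNA oocytes Sohlh2 was lower (-1.54). In 2-cell samples 4 of 10 were higher in KO and none lower. They were Sohlh2 (1.78), Gtf2a1l (1.68), Nobox (1.52), a homeobox factor of oocytes, and Lhx8 (1.18). From oocytes to 2-cell samples 4 of 9 were higher and 3 lower in WT, with a list median of 0.99 beside 0.69 over all genes. In KO 1 of 10 was higher and 1 lower. The 3 lower in WT were Nobox, Sohlh2 and Lhx8, at -1.68, -1.75 and -1.33, and in KO only Nobox of these 3 passed 2-fold (-1.09). Without WT 2-cell replicate 8 the genes higher in KO 2-cell samples were 2 of 8 for the egg coat and surface list, 4 of 12 for the cortical granule list, 3 of 12 for the signalling list and 5 of 10 for the transcription factors, where 11.3% of all genes were.

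Within a group of libraries the 8 members shared depth and scaling, and their co-variation is given as a description. In the 9 KO 2-cell samples all 28 pairs of members had a positive Spearman correlation of CPM, with a median of 0.66 and a highest value of 0.93, for Gdf9 and Bmp15, and 27 pairs were positive with TMM scaling. In the 8 WT 2-cell samples 15 of 28 were positive, with a median of 0.11 (without replicate 8, 11 of 28 and -0.09), and Cd9 with Gdf9 and Zp3 with Bmp15 stood at -0.83 each (-0.75 and -0.79 without replicate 8). In the 10 KO low-rRNA oocytes Zp3 and Astl had 0.94 and Bmp15 and Oosp1 -0.83. Likeness was the Spearman correlation of CPM over all 50 libraries, so it includes differences between library sets and stages. It was computed for 6912 genes, and other members and predicted gene models were then left out of the ranking. The gene most like Gdf9 was Nat14 (0.96), most like Zp3 P4hb (0.94), most like Astl Bin2 (0.94), most like Cd9 Rpl21 (0.90), most like Oosp1 Kbtbd8 (0.84), most like Zp1 Tbccd1 (0.83), most like Bmp15 Pla2g4c (0.82) and most like Zp2 Gemin8 (0.66). The second in each case were Plat (0.94), Prr14 (0.91), Golm1 (0.94), Emg1 (0.87), Tfdp1 (0.83), Abhd16a (0.83), Golph3l (0.77) and Gng3 (0.65), in the same order.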

How the data were processed

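Counts of reads per gene were deposited by the authors as 3 tables for the oocyte and 2-cell libraries: total, maternal-allele and paternal-allele counts. The submitters' processing notes name the aligner STAR (2.6.0a), the counters featureCounts (2.0.1) and HTSeq (0.10.0), and the build mm9; which of them made these tables is not given in the sources used here. Of 209 samples in the series, 159 were not analysed here. The table holds 24542 rows, of which 92 are spike-ins and were left out of library totals. In the allele files, 2046 values of 2-cell libraries exceed the total count, the 33 oocyte columns of the maternal table equal the total table, and those of the paternal table are 0.

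CPM were computed from total gene counts, Rn45s included. Replicate numbers are cell numbers from the labels. Library sets used 0.01% spike-in counts and 1% Rn45s counts as limits. Each comparison divided pooled CPM of one group by those of the other; a gene was tested at 10 CPM in either pool and called at 2-fold, a pool without counts being set to 3 counts. Intervals (95%) are exact conditional intervals for ratios and Clopper-Pearson intervals for shares and cover counting error only, since reads carry no molecular identifiers. Paternal shares over all genes used genes with 50 assigned counts. The limits, the members and the gene lists were chosen with earlier results of these data known. The genes named are the 8 members, Nlrp14, up to 4 genes of a list per comparison with the largest ratio, and the 2 genes most like each member. Other members and predicted gene models were left out of that likeness. No pair of libraries of a group (326 pairs) agreed within sampling noise. On simulated data 97.0% of 3-fold changes were called for the spike-in oocytes (6011 genes), 89.0% for the WT step (7222 genes) and 87.0% for the low-rRNA oocytes (5659 genes), where 3.70% of unchanged genes were called too. The simulated noise was drawn independently for each gene and library. Beyond counting noise its spread was fixed, the same for every gene, and not estimated from these libraries, so the rates hold for that spread only. Changes at the 2-fold limit were not simulated. Shifts shared by the genes of a library or by a set were not simulated, so these rates do not cover them. Python 3.11.15, pandas 2.3.3 and scipy 1.17.1 were used, and edgeR 4.0.16 and DESeq2 1.42.0 only for alternative scaling factors. No genome or transcript lengths of mm9 were used, so levels are not compared between genes.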

Additional observations from a re-analysis of the deposited data

Results flagged for a closer look

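Dixon's test was applied to the 8 members in 5 groups of 7 to 10 libraries, 40 groups of values in all, and 5 had a library far from the others. Chance flags about 1 in 20 groups. KO oocyte replicate 15 was highest for Zp2 (149 CPM), Zp3 (27.8 CPM) and Gdf9 (1380 CPM) among the 7 KO spike-in oocytes. KO 2-cell replicate 4 was highest for Astl (70.7 CPM), and WT 2-cell replicate 8 for Gdf9 (1272 CPM). Without KO oocyte replicate 15 the Gdf9 ratio of KO over WT was 1.56 and that of Zp3 0.84. Without KO 2-cell replicate 4 the Astl ratio in 2-cell samples was 1.85.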

How the results depend on the processing

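No paired analysis was possible because the cell numbers only name libraries and no test was made. A spike-in limit of 0.1% could not be run, as 0 oocytes exceeded it.

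In spike-in oocytes 5 members were higher in KO; with TMM factors, DESeq2 size factors or medians of per-library CPM there were 3 (Zp3 and Cd9 dropped out), with all libraries of the groups pooled 1, and leaving out single libraries gave 3 to 5, 3 without KO replicate 15. In low-rRNA oocytes the count was 0 to 1, 0 without WT replicate 2. In 2-cell samples 1 member was lower; with means of per-library CPM there were 2, and leaving out single libraries gave 1 to 2. With TMM factors Bmp15 was at 1.22 there. Against all WT oocytes pooled 1 member was higher and 2 lower in WT 2-cell samples, with Gdf9 at -2.10; against low-rRNA WT oocytes 2 were lower, with Gdf9 at -3.30 and Zp3 at -0.072. Against all KO oocytes 3 were higher and 1 lower in KO 2-cell samples, with Zp3 at -0.70 and Gdf9 at -0.86; against low-rRNA KO oocytes 3 were higher and 3 lower, with Zp3 at -1.18 and Gdf9 at -1.46. The cause was not tested. Over all genes, TMM factors moved the higher share of calls from 71.9% to 62.2% in spike-in oocytes, from 15.9% to 32.9% in 2-cell samples, from 76.7% to 55.1% for the WT step and from 54.5% to 43.1% for the KO step, and the median of all genes from -0.35 to -0.07, from 0.69 to 0.14 and from 0.15 to -0.04 in the last 3.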
